A study of Mus musculus with 16 samples.

Results

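Spinal cord neurons store small signalling peptides in dense core granules beside their fast transmitters, and 10 genes that encode such peptides were examined here in the lumbar spinal cord of SOD1G93A mice, a transgenic model of amyotrophic lateral sclerosis (ALS), and of wild-type mice. The genes were *Pdyn*, *Calca*, *Calcb*, *Tac1*, *Sst*, *Npy*, *Gal*, *Nts*, *Grp* and *Cck*. They were found as the non-control probes that the array files assign to these names, which gave 14 of 41174 probes and 10 of 27962 gene names. The Cy3 signal was well above the local background on all 16 arrays for 1 probe of each gene, and these 10 probes were tested in every comparison. The other 4 probes were not well above background in Cy3 on any array and were not tested.

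The 16 whole mouse genome arrays held 4 SOD1G93A and 4 wild-type samples at 40 days and 4 of each at 80 days, ages before the onset of motor signs in this model. Each sample was RNA of the whole lumbar cord of male mice on a B6SJL background. SOD1G93A mice carry many copies of a mutant human SOD1 transgene beside their own *Sod1*, and the wild-type mice were non-transgenic animals of the same age. Every array also carried a Cy5-labeled reference, 1 pool of RNA from neonatal heart, kidney and liver of non-transgenic and SOD1G93A mice, without dye swaps. All levels below are therefore log2 ratios of spinal cord over this pool. They compare samples for 1 probe and cannot rank different genes.

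A neuropeptide begins as a precursor protein. Prohormone convertases cut it at pairs of basic residues, carboxypeptidase E trims the ends, and peptidyl-glycine amidating monooxygenase amidates many of the products before release. In the spinal cord, substance P from *Tac1* and calcitonin gene-related peptide (CGRP) from *Calca* and *Calcb* reach the dorsal horn in the terminals of nociceptive afferents. Dynorphin, somatostatin, neuropeptide Y, galanin, neurotensin, gastrin-releasing peptide and cholecystokinin are made by subsets of dorsal horn interneurons, and CGRP also by motor neurons. The cell bodies of these afferents lie in the dorsal root ganglia, outside the cord. In RNA of whole cord, fewer cells of a type and less RNA per cell cannot be told apart.

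The probes show which part of each transcript was read. In these 60-base probes, capitals mark neighbouring codons for basic residues in the reading frame of the precursor, the kind of site at which convertases cut. The *Tac1* probe runs into the code of neurokinin A, which follows such a pair, and the *Npy* probe ends at the pair behind the glycine that becomes the amide of neuropeptide Y. The *Nts* probe holds the end of neurotensin, whose inner pair stays uncut while the pair behind it is cut. The *Gal* probe, with no such pair, lies in the part of the galanin precursor that follows galanin.
*Tac1* probe: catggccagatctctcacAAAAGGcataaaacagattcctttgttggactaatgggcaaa
*Npy* probe: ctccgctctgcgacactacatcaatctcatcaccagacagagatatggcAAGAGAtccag
*Nts* probe: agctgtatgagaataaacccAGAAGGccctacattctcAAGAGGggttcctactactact
*Gal* probe: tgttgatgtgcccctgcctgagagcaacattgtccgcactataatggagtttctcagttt
On the mm7 (NCBI35) mouse build of the files, these probes lie at chr6:7510608-7512022 and chr6:49783794-49787556 on the plus strand, and at chr10:101968978-101969037 and chr19:3305949-3306008 on the minus strand. The first 2 placements span 1415 and 3763 bases, so those probes join exons across an intron.

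For *Pdyn* and the CGRP genes, on which the genotype comparisons below turn, 30 bases of each probe are given, and capitals mark the polyadenylation signal AATAAA. *Calca* makes 2 messenger RNAs by alternative splicing, 1 for calcitonin and 1 for CGRP, and the array has a probe for the 3′ part of each.
*Calca* CGRP probe, bases 23 to 52: gactctgtatccAATAAAcatgacagcatg
*Calca* calcitonin probe, bases 1 to 30: ggcagtcatctggcttcctagtagagcttc
*Calcb* probe, bases 1 to 30: ccgttgttacttgagaggaatgaaaccaag
*Pdyn* probe, bases 1 to 30: acctacttgggacatgtgatccttaatagg
The 2 *Calca* probes lie on the minus strand at chr7:110547755-110547814 and chr7:110549383-110549442, the *Calcb* probe at chr7:110639085-110639144 on the plus strand, and the *Pdyn* probe at chr2:129427440-129427499 on the minus strand of mm7.

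In the cord the CGRP probe of *Calca* was detected and the calcitonin probe was not. The CGRP probe gave a median Cy3 spot signal of 926 to 2506 scanner units on the 16 arrays, against a local background of 35 to 40. The calcitonin probe gave 41 to 48 units, within reach of its background of 34.5 to 39, and was well above it on 0 of 16 arrays. In the reference pool both were measured on all 16 arrays, the calcitonin probe at 284 to 358 units of Cy5. The values of *Calca* that follow are those of the CGRP transcript, and no group difference can be read for the calcitonin transcript.

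**Figure D1:**
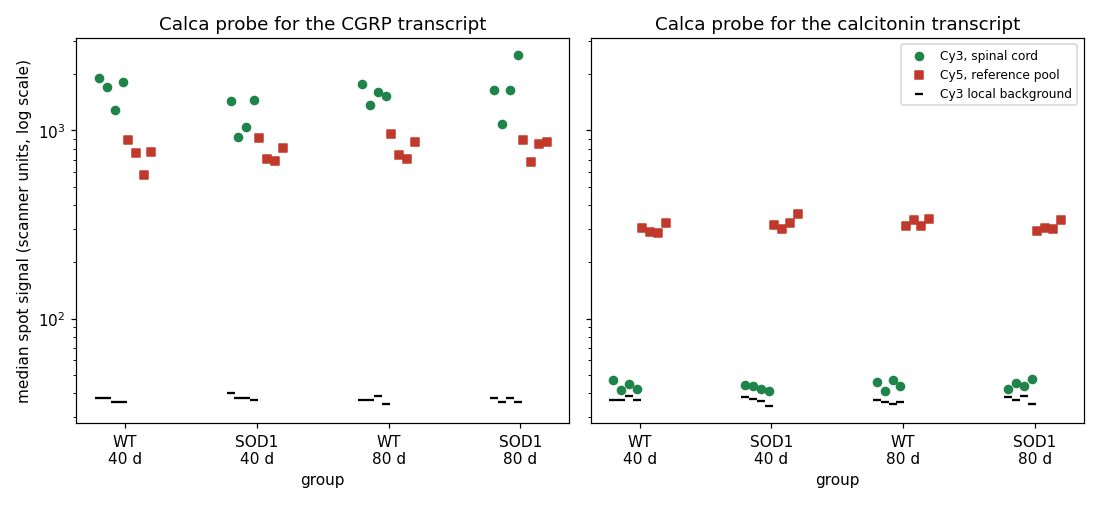
Median spot signal, in scanner units on a log axis, of the *Calca* probes for the CGRP transcript (left) and the calcitonin transcript (right) by group, with Cy3 (spinal cord) as circles, Cy5 (reference pool) as squares and the Cy3 local background as dashes; each point is 1 array. Cy3 of the calcitonin probe lies at 41 to 48 units, next to its background, and that of the CGRP probe at 926 to 2506 units.

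Markers fixed for the cell types of the cord set the frame for these levels. Of 10 motor neuron markers, 8 were well above background on at least 3 arrays, while the probes of *Chat* and *Ret* were so on 0 arrays. The same held for 11 of 15 superficial dorsal horn markers and for all 6 astrocyte, 5 oligodendrocyte and 5 microglia markers. Of 9 sensory neuron markers 3 were so, *P2rx3* on 6 arrays and *Prph* and *Isl1*, which are also motor neuron markers, on 16 and 15. *Avil* and *Pirt* were above background on 0 arrays and *Scn10a*, *Scn11a* and *Trpa1* on 1. Mouse *Sod1*, read by 2 probes, differed between genotypes by -0.02 and 0.11 at 40 days and by -0.18 and -0.04 at 80 days on the log2 scale, the -0.18 being past p under 0.05, and the human transgene was not measured here.

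**Figure D2:**
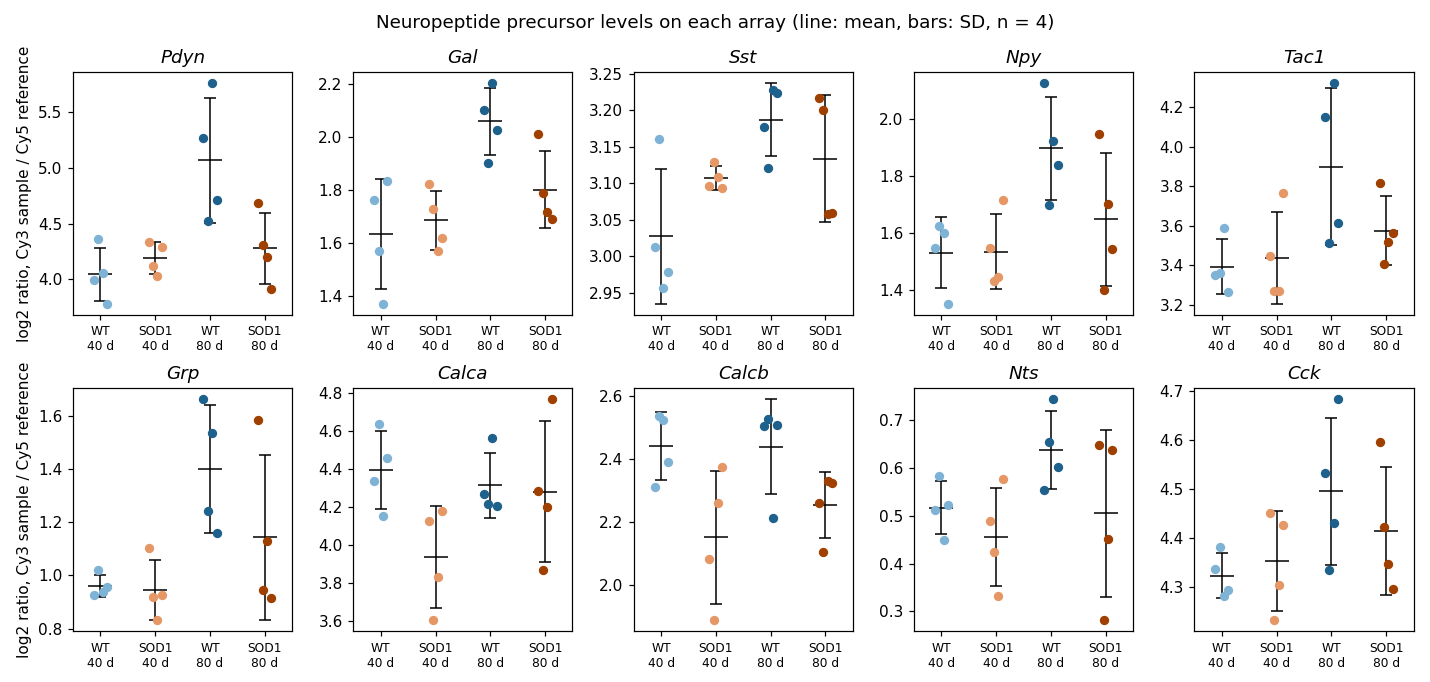
Log2 ratio of Cy3-labeled spinal cord to the Cy5-labeled reference for the tested probe of each gene, with 1 point per array, a line at the mean and bars of 1 SD over 4 arrays; each panel has its own vertical scale. For *Pdyn*, *Gal*, *Npy* and *Grp* every wild-type array of 80 days lies above every wild-type array of 40 days, and all 10 genes have a lower mean in SOD1G93A than in wild-type mice at 80 days.

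The largest change among the 10 genes was in *Pdyn*, the precursor of dynorphins, which act on the kappa opioid receptor. Its level rose 2.03-fold with age in wild-type mice and was 1.73-fold lower in SOD1G93A than in wild-type mice at 80 days. In wild-type mice at 40 days the 4 arrays read 3.99, 4.36, 4.05 and 3.78, a mean of 4.05 ± 0.24 (SD, n = 4), and in SOD1G93A mice of that age 4.33, 4.12, 4.03 and 4.29, a mean of 4.19 ± 0.14 (SD, n = 4). At 80 days wild-type mice read 5.27, 4.52, 5.76 and 4.71, a mean of 5.07 ± 0.56 (SD, n = 4). SOD1G93A mice of 80 days read 4.69, 4.31, 4.21 and 3.92, a mean of 4.28 ± 0.32 (SD, n = 4). Only replicate 1 of these SOD1G93A arrays reached into the range of the age-matched wild-type arrays, while at 40 days the genotypes overlapped widely.

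The log2 difference of *Pdyn*, SOD1G93A minus wild-type, was -0.79 at 80 days (95% interval -1.35 to -0.23, 1.73-fold lower, limma p = 0.0107, adjusted p = 0.681, exact permutation p = 0.0571, two-sided). The smallest p that an exact test of 4 against 4 arrays allows is 0.0286. At 40 days the difference was 0.15 (95% interval -0.12 to 0.41, exact permutation p = 0.343). The genotype difference at 80 days was below that at 40 days by 0.93 (95% interval -1.58 to -0.28, limma p = 0.00770, adjusted p = 0.592, exact permutation p = 0.02 over 4900 relabellings). Within the 4 slides, each of which held 1 array of every group, the difference at 80 days was -0.58, -0.22, -1.56 and -0.80. Both the difference at 80 days and its change between the ages passed the threshold under every alternative tried, 20 and 27 in number, with ranges of -0.97 to -0.54 and -1.11 to -0.64. Beside it, the genotype difference of 3 of 6 astrocyte markers (*Slc1a2* by -0.45, *Gfap* by -0.41 and *Slc1a3* by -0.40) was also lower at 80 than at 40 days. That of 1 of 8 motor neuron markers (*Slc18a3* by 0.36) was higher. Over all probes, 6.72% of 21953 passed p under 0.05 for this change between ages. The part of these markers in the result was not tested.

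Across all probes, 6.86% of 21603 passed p under 0.05 between genotypes at 80 days, 3.18% with a lower value in SOD1G93A mice, and 0 passed a Benjamini-Hochberg adjusted p under 0.05 in limma (1482 at the unadjusted threshold, 686 of them lower). Of the 10 neuropeptide genes 2 passed, *Pdyn* and *Gal*, both lower. All 10 had a negative difference, with a median of -0.22 against -0.002 over all probes tested, and 7 to 10 were negative under the alternatives that kept all arrays. Of the 10 genes, 0 had groups without overlap, against 4.3% of all probes. The values of these genes share arrays and are not independent of each other. Without wild-type replicate 2 or SOD1G93A replicate 1 of 80 days, 4 of the 10 genes passed. Beside *Pdyn* and *Gal* these were *Npy* in both cases, *Tac1* in the former and *Grp* in the latter. Over all probes, 1177 passed in the former case and 1734 in the latter.

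*Gal*, which encodes galanin, a peptide that acts mostly through inhibitory receptors, was the other gene past p under 0.05 at 80 days. Wild-type mice of 80 days read 2.10, 1.90, 2.20 and 2.03, and SOD1G93A mice 2.01, 1.79, 1.72 and 1.69. SOD1G93A replicate 1 lay between the wild-type arrays and the other 3 below all of them. The log2 difference was -0.26 (95% interval -0.46 to -0.06, limma p = 0.0166, adjusted p = 0.681, exact permutation p = 0.0571), and it was negative on all 4 slides. The call ended without loess (-0.15), with Cy3 taken by itself (-0.31) and in the normalized values of the series matrix (-0.32). At 40 days the difference was 0.05, with an exact permutation p of 0.714, and the change between the ages was -0.31 (95% interval -0.61 to -0.01, limma p = 0.0447, adjusted p = 0.741, exact permutation p = 0.0735). That change passed the threshold in 11 of 27 alternatives.

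*Tac1*, *Npy*, *Grp*, *Calcb* and *Nts* had differences of -0.32, -0.25, -0.26, -0.18 and -0.13 at 80 days, with limma p from 0.0594 to 0.167. For *Tac1*, *Npy* and *Grp* the difference was negative on each of the 4 slides. A fit with slide as a replicate block brought 5 genes past p under 0.05, namely *Grp*, *Npy*, *Tac1*, *Pdyn* and *Gal*. Over all probes, 1482 passed in the main fit and 1700 in the fit with the block. The differences are the same in that fit, and the limma p values were 0.00869 for *Grp*, 0.00413 for *Npy* and 0.0330 for *Tac1*. *Npy* encodes neuropeptide Y, made by inhibitory dorsal horn neurons, and *Grp* gastrin-releasing peptide, which conveys itch. The interval was -0.71 to 0.06 for *Tac1* and -0.61 to 0.09 for *Grp*. *Sst*, *Cck* and *Calca* were nearest to 0, at -0.05, -0.08 and -0.03, with *Calca* bounded only between -0.40 and 0.33. Beside these values, 2 of 5 oligodendrocyte markers were higher and 1 of 6 astrocyte markers (*Slc1a2*, -0.27) was lower in SOD1G93A mice at 80 days. Of 9 tested dorsal horn markers, 1 (*Npff*, -0.22) was lower, where 6.86% of all probes passed at that age. The part of these markers in the result was not tested.

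**Figure D3:**
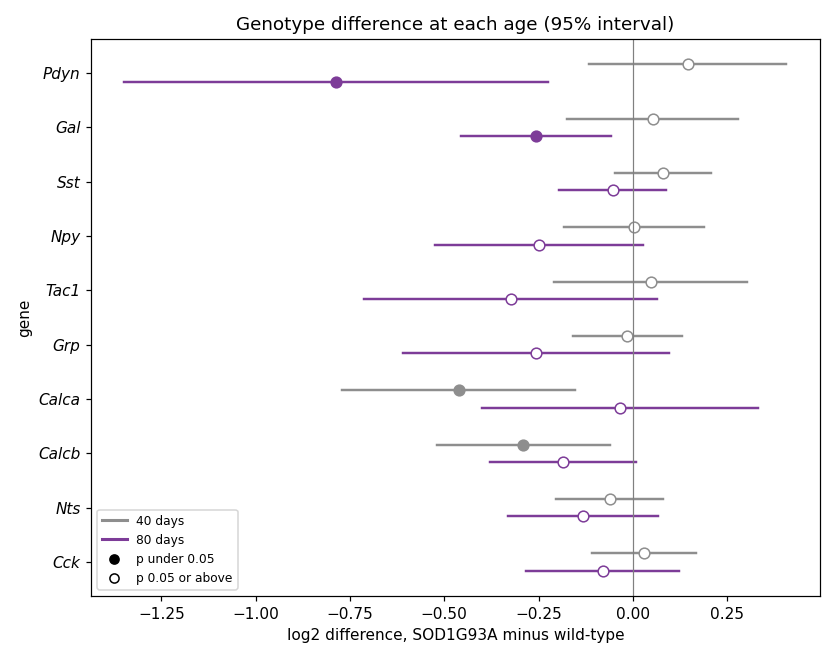
Log2 difference, SOD1G93A minus wild-type, of each gene at 40 days (grey) and 80 days (purple), with 95% intervals from limma and filled points where p is under 0.05. At 40 days *Calca* and *Calcb* are filled at -0.46 and -0.29, and at 80 days *Pdyn* and *Gal* at -0.79 and -0.26.

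At 40 days the 2 CGRP genes were the only ones of the 10 with a genotype difference past the threshold. *Calca*, which encodes alpha-CGRP, read 4.34, 4.64, 4.15 and 4.46 in wild-type mice, a mean of 4.40 ± 0.20 (SD, n = 4). In SOD1G93A mice it read 4.13, 3.61, 3.83 and 4.18, a mean of 3.94 ± 0.27 (SD, n = 4). Wild-type replicate 3 lay within the SOD1G93A range, so the groups overlapped by 1 array of each. *Calcb*, which encodes beta-CGRP, read 2.31, 2.54, 2.52 and 2.39 in wild-type and 2.08, 1.89, 2.26 and 2.37 in SOD1G93A mice, with SOD1G93A replicate 4 inside the wild-type range.

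The log2 difference of *Calca* was -0.46 (95% interval -0.77 to -0.15, 1.38-fold lower, limma p = 0.00770, adjusted p = 0.997, exact permutation p = 0.0571), and it was negative on all 4 slides, from -1.03 to -0.21. That of *Calcb* was -0.29 (95% interval -0.52 to -0.06, 1.22-fold lower, limma p = 0.0183, adjusted p = 0.997, exact permutation p = 0.0571), also negative on all 4 slides. *Calca* is among the genes that the study picked from these arrays for a second assay, so its direction here is not independent evidence. Both calls ended when bright local backgrounds were used as extracted (*Calca* -0.47, *Calcb* -0.37), a setting under which 1 array of each genotype at 40 days had compressed ratios and 249 rather than 963 probes passed over all. *Calcb* was also lost with the processed signals (-0.18). Without wild-type replicate 2 of 40 days *Pdyn* and *Sst* passed as well, both higher in SOD1G93A mice, and 742 probes passed over all.

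Those 963 probes were 4.51% of 21338 tested at 40 days, and 2.83% of all probes had groups without overlap, against 0 of the 10 genes. No probe passed an adjusted p under 0.05 in limma, the smallest being 0.997. The other 8 genes had differences from -0.06 (*Nts*) to 0.15 (*Pdyn*) with limma p of 0.197 or more, and the median of the 10 genes was 0.02 against 0.003 over all probes. *Sst*, read by 10 spots on each array, was bounded between -0.05 and 0.21 and *Cck* between -0.11 and 0.17. At this age 3 of 6 astrocyte markers (*Gfap* 0.24, *Slc1a3* 0.19, *Slc1a2* 0.19) and 2 of 5 oligodendrocyte markers (among them *Mbp*, 0.15) were higher in SOD1G93A mice. Of 8 motor neuron markers 0 passed. The 2 sensory neuron markers that could be tested, *Prph* and *Isl1*, are among those 8, so no marker of sensory neurons alone was tested. The part of the astrocyte and oligodendrocyte shifts in the CGRP values was not tested.

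At 80 days the *Calca* arrays of SOD1G93A mice read 4.29, 3.87, 4.20 and 4.77, around those of wild-type mice at 4.27, 4.22, 4.57 and 4.21. The genotype difference moved by 0.43 between the ages (95% interval -0.07 to 0.92, exact permutation p = 0.163), which did not pass the threshold, so a *Calca* difference limited to 40 days was not established. For *Calcb* the difference was -0.18 at 80 days and its change between the ages 0.11 (95% interval -0.19 to 0.40). Wild-type replicate 3 was low for *Calcb* at 80 days, at 2.21 against 2.50 to 2.53 on the other 3 arrays, and without it the difference at 80 days was -0.26 and passed p under 0.05. Over all probes, 6.72% of 21953 passed p under 0.05 for the change between ages, and 2 of the 10 genes did, *Pdyn* and *Gal*.

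In wild-type mice, 7 of the 10 neuropeptide genes rose between 40 and 80 days and 0 fell, where 15.2% of all probes passed p under 0.05 and 6.95% rose. *Pdyn* rose by 1.02 (2.03-fold), *Tac1* by 0.51, *Grp* by 0.44, *Gal* by 0.42, *Npy* by 0.37, *Cck* by 0.17 and *Sst* by 0.16. In 4 of them, *Pdyn*, *Gal*, *Grp* and *Npy*, the groups did not overlap, against 7.62% of all probes. *Pdyn* (adjusted p = 0.0271) and *Gal* (adjusted p = 0.0447) also passed a Benjamini-Hochberg adjusted p under 0.05 in limma, as 347 probes did. The CGRP genes and *Nts* changed by -0.08 (*Calca*), -0.002 (*Calcb*) and 0.12 (*Nts*), with p of 0.142 or more.

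*Tac1*, the precursor of substance P and neurokinin A, read 3.35, 3.36, 3.59 and 3.26 at 40 days and 4.15, 3.51, 4.32 and 3.61 at 80 days in wild-type mice. Its rise of 0.51 (95% interval 0.17 to 0.85, limma p = 0.00598, exact permutation p = 0.0571) was carried mostly by replicates 1 and 3 of 80 days. *Grp* read 0.93, 1.02, 0.94 and 0.96 at 40 days and 1.66, 1.24, 1.54 and 1.16 at 80 days (exact permutation p = 0.0286). The wild-type values of *Npy* ran from 1.35 to 1.62 at 40 days and were 2.13, 1.70, 1.92 and 1.84 at 80 days (exact permutation p = 0.0286). For *Pdyn*, *Gal*, *Tac1*, *Grp* and *Npy* replicates 1 and 3 were the 2 highest wild-type arrays of 80 days.

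*Sst*, the precursor of somatostatin, and *Cck*, that of cholecystokinin, had the smallest rises. *Sst* read 3.01, 3.16, 2.96 and 2.98 at 40 days and 3.18, 3.12, 3.23 and 3.22 at 80 days in wild-type mice, so that replicate 2 of 40 days lay within the range of 80 days. *Cck* read 4.34, 4.38, 4.28 and 4.29, then 4.53, 4.33, 4.43 and 4.68, with replicate 2 of 80 days below 2 of the arrays of 40 days. The limma p was 0.0125 for *Sst* and 0.0460 for *Cck*, and the exact permutation p was 0.0571 and 0.0857.

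Normalization mattered for some of these rises. Without loess 3 genes remained called, *Pdyn*, *Gal* and *Grp*, and the rises of *Npy*, *Sst*, *Cck* and *Tac1* shrank to 0.02, 0.02, 0.05 and 0.20. The processed signals kept *Pdyn*, *Gal*, *Grp* and *Npy*, and lost *Tac1* (0.12), *Sst* and *Cck*. With backgrounds used as extracted, *Sst* (0.24) and *Cck* (0.36) were lost. *Pdyn*, *Gal* and *Grp* passed the threshold under all 19 alternatives. The Cy5 signal of the reference moved along with Cy3 for some of the genes. Between 40 and 80 days in wild-type mice, quantile-normalized Cy3 and Cy5 rose on the log2 scale by 0.37 and 0.35 for *Npy*, 0.51 and 0.34 for *Tac1* and 0.35 and 0.25 for *Sst*, but by 1.01 and 0.19 for *Pdyn*, 0.47 and 0.10 for *Gal* and 0.42 and 0.03 for *Grp*. As a description, Cy3 and Cy5 of the *Sst* probe had a Pearson r of 0.95 over the 16 arrays, where the median over all tested probes was 0.57, and the part of the reference signal in these rises was not tested.

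**Figure D4:**
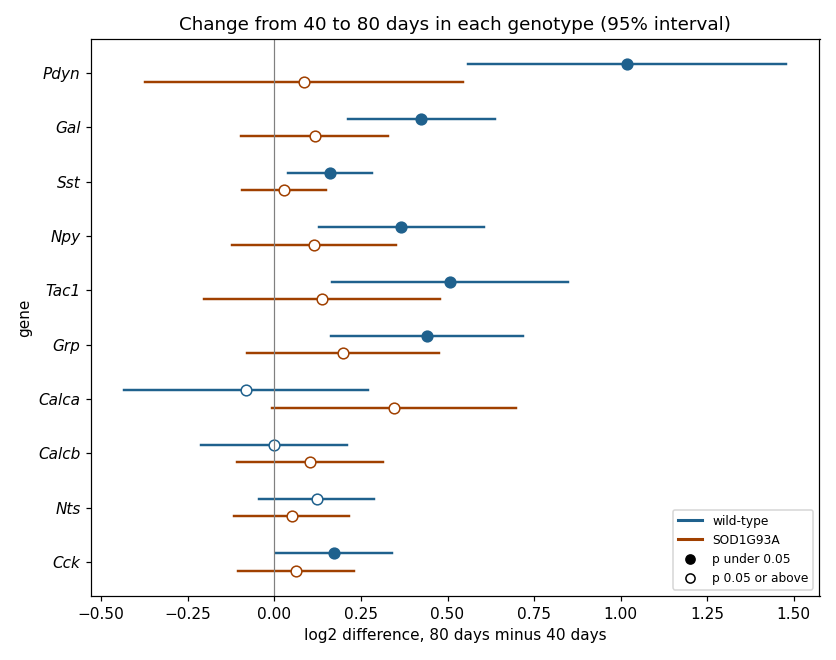
Log2 difference, 80 minus 40 days, of each gene in wild-type mice (blue) and in SOD1G93A mice (brown), with 95% intervals from limma and filled points where p is under 0.05. In wild-type mice 7 genes are filled, led by *Pdyn* at 1.02, and in SOD1G93A mice 0 are.

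In SOD1G93A mice 0 of the 10 genes passed p under 0.05 between 40 and 80 days in limma, where 16.9% of all probes did and 12.4% had groups without overlap, against 0 of the 10. All 10 differences were positive, from 0.03 (*Sst*) to 0.35 (*Calca*), with a median of 0.11 against 0.006 over all probes, where wild-type mice had a median of 0.27 against 0.01. *Calca* came closest (95% interval -0.01 to 0.70, limma p = 0.0535, exact permutation p = 0.143), and passed in 8 of 19 alternatives, among them the fit with slide as a replicate block, the Cy3 channel alone and backgrounds used as extracted. *Pdyn* changed by 0.09 in SOD1G93A mice (95% interval -0.37 to 0.55). The direct test of that contrast is the change of the genotype difference given above. It passed p under 0.05 in limma for *Pdyn* and *Gal*, with an exact permutation p of 0.02 and 0.0735. For *Grp*, *Npy*, *Tac1*, *Sst* and *Cck* it did not, with limma p of 0.118 or more. Their changes were -0.24, -0.25, -0.37, -0.13 and -0.11, with exact permutation p of 0.254, 0.188, 0.180, 0.0710 and 0.333. By the exact test *Gal* (0.0735) was thus not set apart from *Sst* (0.0710). A rise past the threshold in wild-type and not in SOD1G93A mice therefore does not show that the genotypes differ in these 5 genes. The age and genotype comparisons share arrays. In the 4 wild-type arrays of 80 days, high values enter both the rise with age and the lower value in SOD1G93A mice.

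Some cell type markers also passed p under 0.05 in limma with age. Over all probes, 15.2% did so in wild-type and 16.9% in SOD1G93A mice. In wild-type mice 2 of 5 oligodendrocyte markers were lower at 80 days, among them *Mog* with a log2 difference of -0.70. There 2 of 6 astrocyte markers were higher, as was 1 of 8 motor neuron markers (*Slc5a7*, 0.20). The 8 motor neuron markers had a median difference with age of -0.09 in wild-type and 0.03 in SOD1G93A mice. In SOD1G93A mice 2 of 5 oligodendrocyte markers and 2 of 6 astrocyte markers (*Aqp4*, -0.47, and *Slc1a2*, -0.30) were lower at 80 days, and 1 astrocyte, 1 microglia (*Tmem119*, 0.27) and 1 motor neuron marker (*Slc18a3*, 0.37) were higher. Of the 9 superficial dorsal horn markers that could be tested, 0 passed p under 0.05 in either genotype, with a median difference of 0.07 in wild-type and 0.08 in SOD1G93A mice. The summed Cy3 signal of the 11 detected dorsal horn markers was 12440.3 to 16935 units on the wild-type arrays of 40 days and 12347 to 15945 units on those of 80 days. That of the 8 motor neuron markers was 2216 to 2550.1 and 1807 to 2507 units. Each group sat at its own position on every slide, so array position and group cannot be told apart.

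Other genes of peptide signalling were compared by lists. Of 18 tested genes among 26 other peptide precursors, 6 rose and 1 fell with age in wild-type mice, with a median difference of 0.11. Over all probes, 15.2% passed p under 0.05 in limma in wild-type mice and 6.95% rose. *Penk*, the enkephalin precursor, rose by 0.47, *Tac2*, which encodes neurokinin B, by 0.36, *Adcyap1*, which encodes the peptide PACAP, by 0.34, and *Nmb*, which encodes neuromedin B, by 0.27, while *Npb*, which encodes neuropeptide B, fell by 0.48. In SOD1G93A mice 3 of the 18 genes passed, where 16.9% of all probes did. There *Nmb* rose by 0.19 and *Ucn*, the urocortin gene, by 0.22, and *Npb* fell by 0.46. *Npb* thus fell in both genotypes, with adjusted p of 0.0317 in wild-type and 0.0447 in SOD1G93A mice from limma. Under the alternatives, 1 to 9 of the other precursors rose and 1 to 7 fell in wild-type mice, with 1 rising without loess, and 0 to 2 rose and 1 to 8 fell in SOD1G93A mice.

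Of 13 genes that process peptides or build granules, 5 rose with age in wild-type mice, where 6.95% of all probes rose, and 0 passed in SOD1G93A mice, where 16.9% of all probes passed. *Pam*, the amidating enzyme, rose by 0.32, *Scg3*, a granule protein that binds chromogranin A, by 0.31, *Pcsk1*, a prohormone convertase, by 0.29 and *Scg2*, secretogranin II, by 0.22. At 80 days *Pcsk1* (-0.27) and *Pam* (-0.18) were lower in SOD1G93A than in wild-type mice, with an adjusted p of 0.718 and 0.722 from limma. For the change of the genotype difference between ages 0 of the 13 genes passed in limma, where 6.72% of all probes did. The unadjusted limma p values were 0.0720 for *Pcsk1*, 0.0512 for *Pam* and 0.0547 for *Scg3*. Of the 13 genes, 1 to 6 rose in wild-type mice under the alternatives, 2 with backgrounds used as extracted and 1 without loess.

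Of 26 receptor genes on the array 18 were tested, and 2 of them passed with age in wild-type mice, beside 15.2% of all probes. *Tacr1*, the substance P receptor, rose by 0.19 and *Sort1*, a sorting receptor that binds neurotensin, fell by 0.18 with age in wild-type mice. In SOD1G93A mice 0 passed, where 16.9% of all probes did. Under the alternatives 1 to 11 receptor genes fell with age in wild-type mice and 0 to 11 in SOD1G93A mice, the 11 being in the series matrix, whose ages were normalized apart. *Sort1* was higher in SOD1G93A mice at 80 days by 0.19 (limma adjusted p = 0.667), with a change between ages of 0.24 (limma adjusted p = 0.601), and *Galr3*, a galanin receptor, was higher at 40 days by 0.16. *Oprk1*, the kappa opioid receptor to which dynorphin binds, differed between genotypes by 0.05 at 40 and -0.09 at 80 days and passed at neither age. Of 9 peptide-degrading enzymes, 0 passed p under 0.05 in limma between genotypes at either age or with age in wild-type mice. Over all probes, 4.51% passed between genotypes at 40 days, 6.86% at 80 days and 15.2% with age in wild-type mice. *Ece2*, an endothelin-converting enzyme, rose by 0.53 in SOD1G93A mice, while the change of the genotype difference for it did not pass (0.42, limma adjusted p = 0.799).

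**Figure D5:**
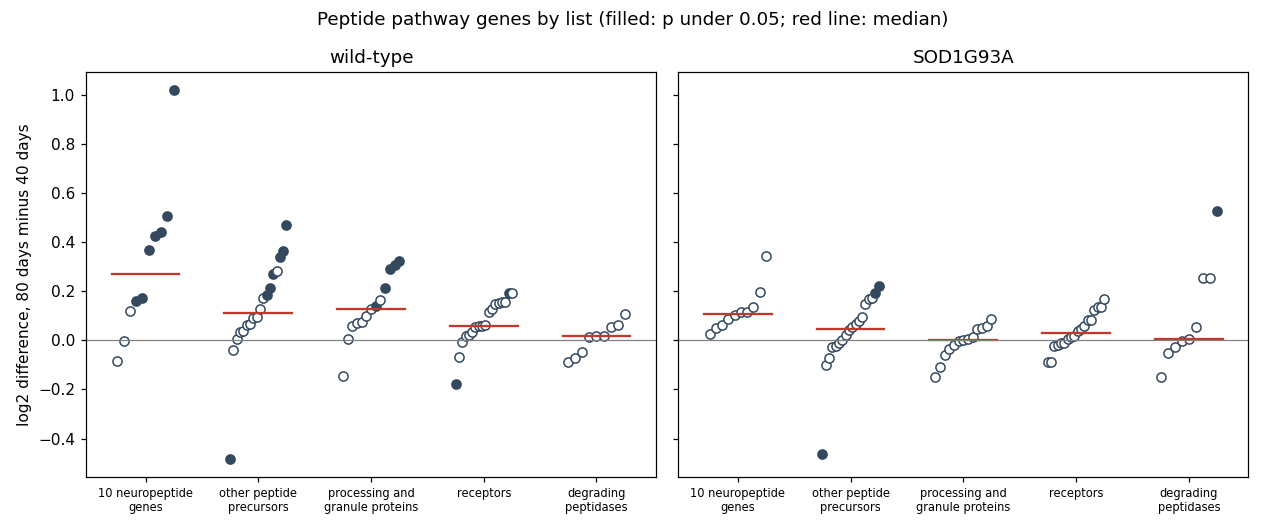
Log2 difference, 80 minus 40 days, of the tested genes of each list in wild-type (left) and SOD1G93A mice (right), with 1 point per gene, filled where p is under 0.05, and a red line at the median. In wild-type mice the medians are 0.27 for the 10 neuropeptide genes, 0.11 for other precursors and 0.13 for processing and granule genes; in SOD1G93A mice they are 0.11, 0.05 and 0.003.

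Over the 16 arrays, the log2 ratio of *Pdyn* was most like those of *Hook1* (Pearson r = 0.96), *Ctla2b* (r = 0.93) and *Lrg1* (r = 0.91). That of *Gal* was most like *A230057D06Rik* (r = 0.87), *Scg2* (r = 0.86) and *Abhd1* (r = 0.86). *Calca* was nearest to *BC023805* (r = 0.84), *Srsf5* (r = 0.83) and *Slamf9* (r = 0.80), and *Calcb* to *Eef1akmt2* (r = 0.92), *4930579K19Rik* (r = 0.85) and *Pex3* (r = 0.79). Among the 10 genes, after each group's mean was taken off, *Pdyn* varied with *Tac1* (r = 0.80), *Grp* (r = 0.74) and *Npy* (r = 0.63), and *Calca* with *Nts* (r = 0.80), whereas *Calca* and *Calcb* had r = 0.29. These are descriptions over 16 arrays that share slides and a reference.

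A cyclic AMP response element (CRE) is a classical feature of neuropeptide promoters, and windows of 300 bases, 250 of them before the gene start, were searched for it on both strands in RefSeq sequences of GRCm38.p6. For 8 of the 10 genes, 9 windows were found. The full element TGACGTCA was in the window of *Sst* and in 1.79% of 32851 windows of all genes. The shorter TGACG, which the full element contains, was in 6 of the 9 windows and in 20.8% of all windows. These 6 windows were those of *Calca*, *Cck*, *Gal*, *Nts*, *Sst* and *Tac1*. *Pdyn* and *Npy*, which both rose with age in wild-type mice, had neither in their windows. For 3 genes that rose with age and for *Calca*, 60 bases from before the start are shown on the gene's strand with the match in capitals, CGTCA being TGACG on the opposite strand.
*Sst*, chr16:23890858-23890917, minus strand: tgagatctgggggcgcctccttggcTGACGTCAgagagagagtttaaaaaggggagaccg
*Cck*, chr9:121495707-121495766, minus strand: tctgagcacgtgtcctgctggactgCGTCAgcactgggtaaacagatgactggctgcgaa
*Tac1*, chr6:7554993-7555052, plus strand: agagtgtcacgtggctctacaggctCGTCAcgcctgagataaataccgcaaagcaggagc
*Calca*, chr7:114636388-114636447, minus strand: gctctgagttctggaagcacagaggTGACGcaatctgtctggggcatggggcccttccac
These matches describe the letters of the windows, and no binding was measured.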

How the data were processed

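RNA of whole lumbar spinal cord (Cy3) was measured on 16 Agilent whole mouse genome arrays against a common neonatal reference (Cy5). Per the labels, the authors extracted spots with Feature Extraction 9.5.3.1. The intensity columns are spot signals as deposited, not normalized. The marks for outlier and well above background spots are other values that the deposited files hold. The series matrix holds log2 values normalized by the authors. They follow Cy3 alone (Pearson r 0.998 or more per array), with column medians near 6.40 at 40 days and 6.09 to 6.10 at 80 days, so the ages were scaled apart and its age comparisons carry that shift. Which zero point was used stays unknown.

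With limma 3.58.1 in R 4.3.3 (statmod 1.5.0), median signals were corrected by normexp (offset 50), loess was run on each array, Aquantile set the mean intensities of all arrays to the same quantiles, and values were given as log2 of Cy3 over Cy5. The offset makes changes of dim probes appear smaller. A local background over 20 units above its own spot was first reset to the array median, since a few such spots (4, 5 and 63 in Cy3) compressed all ratios of wild-type replicate 3 and SOD1G93A replicate 4 of 40 days and SOD1G93A replicate 4 of 80 days. After the reset, the slope of each array on the others of its age was 0.95 to 1.03. Control and outlier spots were left out and the spots of a probe averaged. Of all probes, 46.1% to 55.3% were well above background in Cy3 per array. Precision is limited by how many arrays there were. A probe was tested if so marked on at least 3 of 4 arrays of 1 group and if each group had at least 2 measured arrays.

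Genotypes were compared with lmFit and eBayes on the 8 arrays of an age, and ages and the change of the genotype difference on 16 arrays. Probes with an unadjusted two-sided p under 0.05 were called, as in the study's methods, with Benjamini-Hochberg adjusted p over all tested probes beside them. Exact permutation tests used 70 relabellings of 4 against 4 arrays or 4900 between ages. The labels do not say which animal a sample came from, so p-values measure the spread between these samples. Array barcodes show that replicate number is the slide. Deviations of same-slide arrays correlated at -0.06 to 0.23 (over 0.1 in 5 of 16 pairs). The fits were tested on simulated data.

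The 10 genes and the lists were chosen with earlier results of these data known. All probes of the 10 genes were accounted for, the brightest in Cy3 being used for each gene. From the lists, at most 4 genes with p under 0.05 were named per comparison, by size, with *Nmb*, *Oprk1*, and *Pcsk1*, *Pam*, *Scg3* and *Ece2* for the change between ages, and the markers named after their values were seen. Alternatives were no reset, no background correction, processed signals, no loess, Cy3 alone, the series matrix, no or a stricter filter, outliers kept, array weights, 16 arrays for the spread, the replicate block, and leaving out single arrays. The values of some marker genes are not reported here.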

Additional observations from a re-analysis of the deposited data

Results flagged for a closer look

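Among 56 groups of 4 arrays (14 probes in 4 groups), the *Calcb* value of wild-type replicate 3 at 80 days, 2.21, stood apart from the other 3 arrays, the nearest being 2.50, and the gap was 0.924 of the group's range. Chance alone would single out about 1 in 20 such groups.

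The genotype difference (SOD1G93A minus wild-type) was lower at 80 than at 40 days for *Pdyn* by a log2 change of -0.93 (limma p = 0.00770, exact permutation p = 0.02) and for *Gal* by -0.31 (limma p = 0.0447, exact permutation p = 0.0735). Neither passed an adjusted p under 0.05.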

How the results depend on the processing

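Of 570 log2 differences of the 10 genes under 12 alternatives, 490 kept their direction and side of p under 0.05, 24 lost and 17 gained the call, 39 changed sign without being called in either setting, and 0 called values reversed. With single arrays left out, the counts were 432, 15, 17, 16 and 0 of 480. The number of genes called at 40 days (2 of 10) was 0 without the background reset and 1 with processed signals. At 80 days (2) it was 1 without loess and 5 with slide as a replicate block. For the change between ages (2) it was 1 without the reset, without background correction, in Cy3 alone, in the series matrix and with array weights. For age in wild-type mice (7) it was 4 with processed signals and 3 without loess, and in SOD1G93A mice (0) it was 1, *Calca*, without the reset, without loess, in Cy3 alone, in the series matrix and with the replicate block. With each array left out in turn, these counts ranged from 2 to 4 at 40 days, 2 to 4 at 80 days, 1 to 4 for the change between ages, 6 to 7 in wild-type and 0 to 1 in SOD1G93A mice.

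Over all probes, calls at 40 days (963) were 249 without the reset, 1615 with processed signals, 553 in Cy3 alone, 538 in the series matrix, 1900 without a filter and 1913 without wild-type replicate 4. At 80 days (1482) they were 2420 without a filter, 2405 with array weights and 977 without SOD1G93A replicate 3. For the change between ages (1475) they were 792 without the reset, 978 in Cy3 alone and 2473 without a filter. For age they were 9941 in wild-type (3333) and 10622 in SOD1G93A mice (3709) in the series matrix, whose ages were normalized apart, 5025 in wild-type mice without a filter and 2472 in SOD1G93A mice without loess. The causes were not tested. No group difference can be read at this signal from probes that were not detected, among them that of the calcitonin transcript.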
